A study of Schmidtea mediterranea with 18 samples.

Results

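A total of 23 transcripts of the planarian Schmidtea mediterranea stood high on days 1 and 2 after amputation and low on days 5 and 6, whether animals had received APC RNAi, Bcat RNAi or control RNAi. They are 23 of 82955 transcripts counted. They were chosen by their own read counts, as CPM (counts per 1000000 aligned reads). A transcript was kept when its mean over all 18 libraries was at least 2 CPM and when its 6-day means in APC RNAi and in Bcat RNAi, with 0.1 CPM added, each lay between 0.67 times that of control and a little under 1.5 times. In addition, its mean over days 1 and 2 had to be at least 1.7 times its mean over days 5 and 6 across the 3 treatments, and higher in each of them. The early-to-late ratio and the mean treatment ratios are therefore descriptions here, with no test.

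The libraries hold polyA RNA of regenerating trunk fragments of the clonal asexual strain CIW4, sampled every day from day 1 to day 6. All animals, controls included, were fed double-stranded RNA 3 times and cut 3 days after the last feed. The double-stranded RNA was directed at apc, at beta-catenin-1 (Smed-Bcatenin1, here Bcat RNAi) or, as the control, at GFP per the titles. RNA of 3 biological replicates was pooled for each library, so there is 1 library per treatment and day, and p-values measure spread between days and treatments, not between animals. The submitters' treatment protocol names tail fragments, where titles and tissue labels name trunks.

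Planarians rebuild missing tissue from stem cells called neoblasts. Amputation sets off a transient wound response within hours, followed by stem cell division and growth of a blastema, the bud of new tissue at the wound. Canonical Wnt signalling through beta-catenin-1 sets head and tail identity along the body: loss of beta-catenin-1 gives heads at wounds that should form tails, and loss of apc, a brake on beta-catenin, gives tails at wounds that should form heads.

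The files do not pair identifiers with gene names, and no sequence was at hand, so transcripts are given by identifier with no role. Wound-response genes and cell type markers could not be read for the same reason, nor could apc and beta-catenin-1, so the knockdowns are not checked here. The first library is from day 1, after the first hours of the wound response. The set is therefore called early-high transcripts and not wound-induced ones.

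Aligned reads ranged from 41549185 to 58308153 per library. Each of the 23 transcripts had at least 40 reads in every library, and the set held between 18241 and 67582 reads per library. Library composition also moved with time: transcripts with a mean below 1 CPM took 0.85% ± 0.205 of aligned reads at day 1 and 1.18% ± 0.232 at day 6 (SD, n = 3 treatments). Unaligned reads went from 4.43% ± 0.409 to 5.69% ± 0.198 of all reads between those days. TMM factors, which scale for library composition, went from 0.969 to 1.15 in control and ranged from 0.804 to 0.969 in APC RNAi and from 1.01 to 1.13 in Bcat RNAi. The part of these shifts in the results was not tested. With TMM-scaled CPM the same rule would give 21 transcripts, 13 of them among the 23.

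The 23 transcripts together went down at each daily step in the mean over treatments. Their summed level was 1262 CPM ± 96.0 at day 1, 1075 ± 150.3 at day 2 and 800.4 ± 124 at day 3 (SD, n = 3 treatments). It then stood at 673 CPM ± 123 at day 4, 545 ± 124 at day 5 and 509.6 ± 141 at day 6. Between days 1 and 6 the control sum dropped from 1159 to 378 CPM, that of APC RNAi from 1278 to 658 CPM and that of Bcat RNAi from 1349 to 493 CPM. In CPM the 3 treatments thus began close together and ended with APC RNAi highest and control lowest. The TMM factor at day 1 was 0.834 in APC RNAi and 0.969 in control, so on that scale APC RNAi would begin farther above control. SmedASXL_003908 alone held 352 CPM of the mean sum at day 1. In whole fragments, fewer cells of a type and less RNA per cell cannot be told apart.

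The early-to-late ratio of the 23 had a median of 2.14 and ranged from 1.71 to 7.17. It reached 2 in 13 transcripts and 3 in 4. Mean levels over the 18 libraries ran from 2.51 to 221 CPM, with a median of 15.1 CPM. All 6 libraries of days 1 and 2 stood above all 6 libraries of days 5 and 6 for 15 of the 23. The same held for 2.79% of the 15154 transcripts of at least 2 CPM, but the choice used this contrast, so nothing is read from it. Within a treatment, both early libraries stood above both late ones for all 23 transcripts in control and in APC RNAi and for 22 in Bcat RNAi. Of the 15154, 20.8% did so in control, 14.7% in APC RNAi and 29.3% in Bcat RNAi, and nothing is read from this either. With the level and treatment limits alone there were 13691 transcripts, and their median ratio was 0.977. The opposite pattern, at least 1.7 times higher late than early under the same limits, was held by 64 transcripts. Another 26 transcripts met the level and time limits and not the treatment limits.

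**Figure D1:**
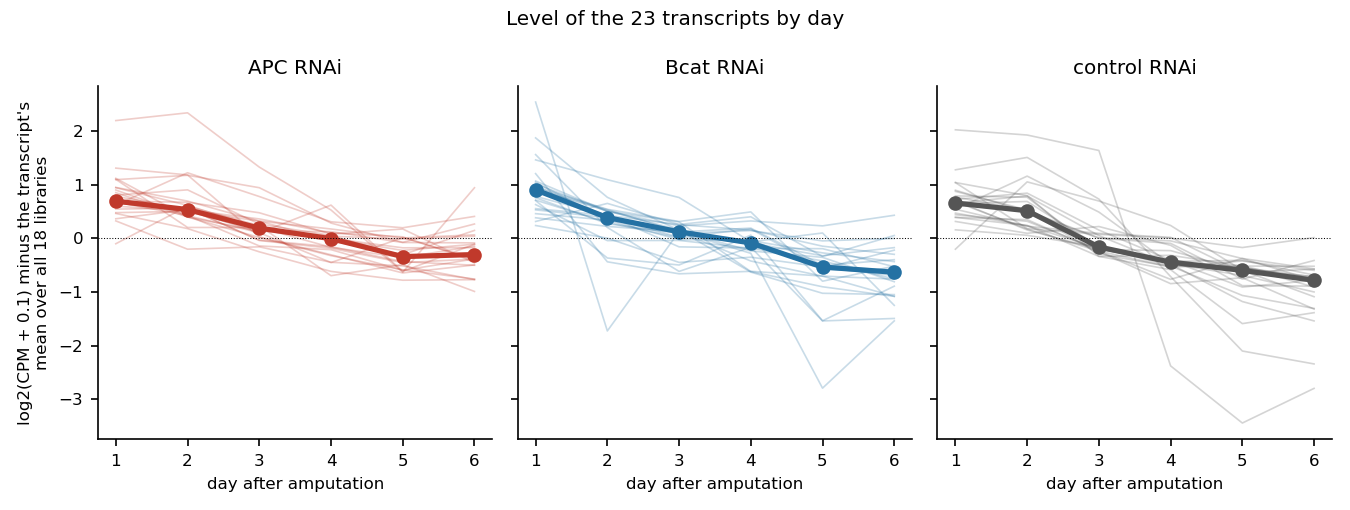
Level of each of the 23 transcripts (thin lines) and their median (thick line with points) by day after amputation, as log2(CPM + 0.1) minus the transcript's mean over all 18 libraries, in 1 panel per treatment. The medians lie above 0 at days 1 and 2 and below 0 at days 5 and 6 in each panel, with the lowest median, -0.78, in control at day 6.

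Relative to each transcript's own mean, the median stood at 0.66 log2 units in control, 0.69 in APC RNAi and 0.90 in Bcat RNAi at day 1. At day 3 it stood at -0.16 in control, 0.19 in APC RNAi and 0.12 in Bcat RNAi. At day 6 it was -0.78 in control, -0.30 in APC RNAi and -0.63 in Bcat RNAi. In control the drop was uneven, from 0.51 at day 2 to -0.16 at day 3, and in APC RNAi the median was at -0.34 at day 5, slightly below day 6. Control was thus the first treatment whose median passed below the transcripts' own means. Those means are over all 18 libraries, and the median 6-day level was 1.22 times control in APC RNAi and 1.13 times in Bcat RNAi. The order thus includes this difference in level and is not read as an earlier fall. Averaged over treatments, 20 transcripts were highest at day 1 and 3 at day 2. Within treatments, day 1 was highest for 17 in control, 15 in APC RNAi and 22 in Bcat RNAi. The lowest day was day 5 for 11 and day 6 for 12 in the mean over treatments. The mean went down at all 5 daily steps for 8 transcripts, at 4 for 11 and at 3 for 4.

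SmedASXL_006360 had the largest early-to-late ratio, 7.17. In control it stood at 43.6, 40.8 and 33.4 CPM on days 1 to 3 and at 1.97, 0.891 and 1.4504 CPM on days 4 to 6. In APC RNAi it stood at 49.2, 54.4, 26.9, 15.4, 6.85 and 20.6 CPM on days 1 to 6. In Bcat RNAi the same days gave 62.5, 3.16, 11.6, 8.77, 1.46 and 3.61 CPM. The level thus dropped between days 3 and 4 in control and between days 1 and 2 in Bcat RNAi, and more gradually in APC RNAi. Reads ranged from 48 in control at day 5 to 3001 in Bcat RNAi at day 1, so counting error is small beside these changes. Its early-to-late ratio was 33.3 in control, 3.75 in APC RNAi and 12.5 in Bcat RNAi.

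SmedASXL_004241 came next, with a ratio of 4.19. Control held 84.8, 99.5, 58.1, 21.3, 8.07 and 6.82 CPM on days 1 to 6. APC RNAi held 74.7, 79.0, 67.3, 42.6, 33.2 and 42.1 CPM. Bcat RNAi held 103, 40.2, 22.8, 31.1, 11.96 and 12.3 CPM. The late APC RNAi libraries stayed above the late libraries of both other treatments, and the Bcat RNAi level was already lower than in the others at day 2.

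SmedASXL_006360 and SmedASXL_016195 were the 2 transcripts whose smallest ratio in any treatment was largest. SmedASXL_016195 had ratios of 5.30 in control, 3.52 in APC RNAi and 2.67 in Bcat RNAi. Its mean over treatments was 5.37 CPM ± 0.71 at day 1 and 1.41 CPM ± 0.47 at day 6 (SD, n = 3), and every treatment was lower at day 6 than at day 1. In all, 6 of the 23 had a ratio of at least 2 in each treatment.

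SmedASXL_003908 and SmedASXL_018877 gave the most reads, 202195 and 91347 over the 18 libraries. Transcript lengths were not at hand, so this says nothing of their relative abundance. SmedASXL_003908 went down in small daily steps: 339, 232, 181, 153, 142 and 124 CPM in control, 358, 300.1, 267, 223, 212 and 156 CPM in APC RNAi. In Bcat RNAi it held 358, 279.5, 186, 184, 155 and 123 CPM. Each day's level was below that of the day before in all 3 treatments.

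The limit of 1.7 has no gap around it. Just inside lay SmedASXL_006499 with a ratio of 1.71 and SmedASXL_015062 with 1.73. Just outside lay SmedASXL_012364 with 1.696 and SmedASXL_010447 with 1.69. A ratio of at least 1.5 would give 56 transcripts and one of at least 2 would give 13. Without the control library of day 1 the rule would give 11 transcripts, of which 9 are among the 23. Leaving it out also changes the control mean used by the treatment limits.

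**Figure D2:**
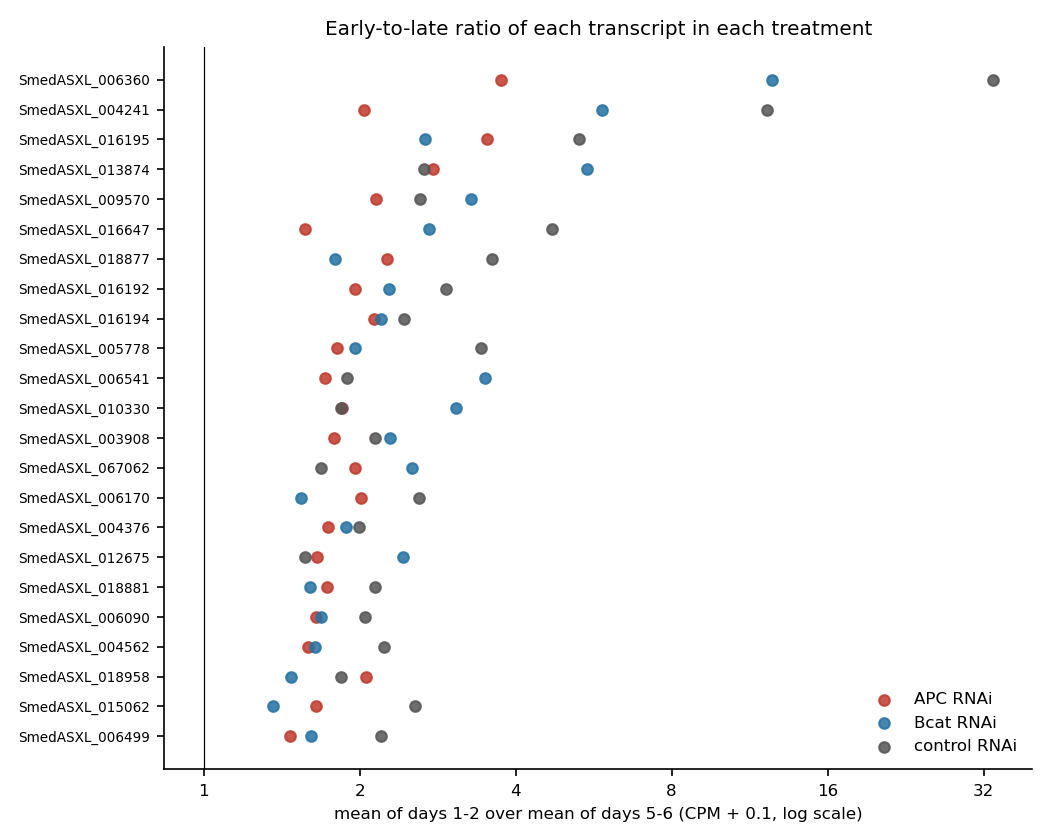
Ratio of the mean of days 1 and 2 to the mean of days 5 and 6 (CPM + 0.1, log axis) for each of the 23 transcripts, with 1 point per treatment. All points lie right of 1, as the choice requires, and the control point lies farthest right for 15 of the 23.

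Changes between single days within the early, middle and late pairs were not part of the choice, which used means over pairs of days. They were tested over all 18 libraries with edgeR's quasi-likelihood test, with day as a factor and treatment in the model. The test covered 36235 transcripts, all 23 among them, with Benjamini-Hochberg adjustment over the whole of it and a threshold of 0.05. A single high library at day 1 or 2 raises the early mean, so a large step in either direction is not wholly independent of the choice. The rule weighs days 1 and 2 equally, but its outcome moved with single libraries of these days. Without the day 1 library of APC RNAi, Bcat RNAi or control it would give 22, 16 or 11 transcripts. Without that of day 2 it would give 34, 33 or 19. The direction of the step from day 1 to day 2 is therefore not taken as free of the choice.

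From day 1 to day 2, 2 of the 23 fell and 0 rose past the threshold, where 0.284% of all tested transcripts fell and 0.0938% rose past it. By sign alone 21 were lower and 2 higher, as were 7360 and 6331 of the 13691 transcripts within the same level and treatment limits. At an unadjusted p under 0.05, 11 were lower and 1 was higher at day 2, as were 5.11% and 5.85% of all tested and 7.68% and 5.70% of the 13691 transcripts within the same level and treatment limits. The median log2 change of the 23 was -0.34, against 0.01 over all tested and -0.01 over the 13691. SmedASXL_067062 fell most among those called, with 5.94 CPM ± 0.358 on the first day and 2.71 CPM ± 0.651 on the next (SD, n = 3 treatments). Its log2 change was -1.21 (SE 0.15, adjusted p = 0.00155, edgeR). It was lower at day 2 in 3 of 3 treatments, at 3.11 against 5.87 CPM in APC RNAi, 1.96 against 6.33 CPM in Bcat RNAi and 3.06 against 5.63 CPM in control. After day 2 it stayed between 1.55 and 3.11 CPM, so most of its change lay between the first 2 days. Its call was lost with no treatment term and held in the other 26 settings.

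SmedASXL_003908 also fell from day 1 to day 2, from 352 CPM ± 11.0 to 270.5 CPM ± 35.1 (SD, n = 3), a log2 change of -0.43 (SE 0.09, adjusted p = 0.0425, edgeR). This call was lost under 18 of 27 other settings, among them 14 of 18 that leave out 1 library, and adjusted p ranged up to 1.00. SmedASXL_006170, named after its values were seen, was the transcript with the largest positive change, 0.74 (SE 0.22, adjusted p = 0.154, edgeR). It held 4.72 CPM at day 1 and 11.4 CPM at day 2 in control, 5.07 and 8.28 CPM in APC RNAi, and 6.79 and 8.60 CPM in Bcat RNAi. All 3 treatments were thus higher at day 2 for this transcript.

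The step from day 1 to day 2 was uneven between treatments, where it can be given only as a ratio of 1 library to another. The median ratio of day 2 to day 1 over the 23 was 0.919 in control, 0.91 in APC RNAi and 0.748 in Bcat RNAi. In Bcat RNAi 5 of the 23 stood at or below 0.5 times their day 1 level, where 0.62% of the 15154 transcripts of at least 2 CPM did. In APC RNAi and in control 0 of the 23 did so, against 0.125% and 0.0726% of the 15154. A high day 1 library raises the early mean that the choice used. These counts are therefore not independent of the choice, and nothing is read from them beside the shares. The 5, named after their values were seen, are SmedASXL_006360, SmedASXL_004241, SmedASXL_067062, SmedASXL_013874 and SmedASXL_016647. The ratio of SmedASXL_006360 in Bcat RNAi, 0.052, was the lowest of all 15154. SmedASXL_013874 went from 54.3 to 25.2 CPM in Bcat RNAi, from 32.2 to 19.5 CPM in APC RNAi and from 24.5 to 26.6 CPM in control. SmedASXL_016647 went from 123 to 58.5 CPM in Bcat RNAi, while it went from 116 to 176 CPM in APC RNAi and from 110.1 to 169 CPM in control. With 1 library per treatment and day these differences between treatments have no replicate check.

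**Figure D3:**
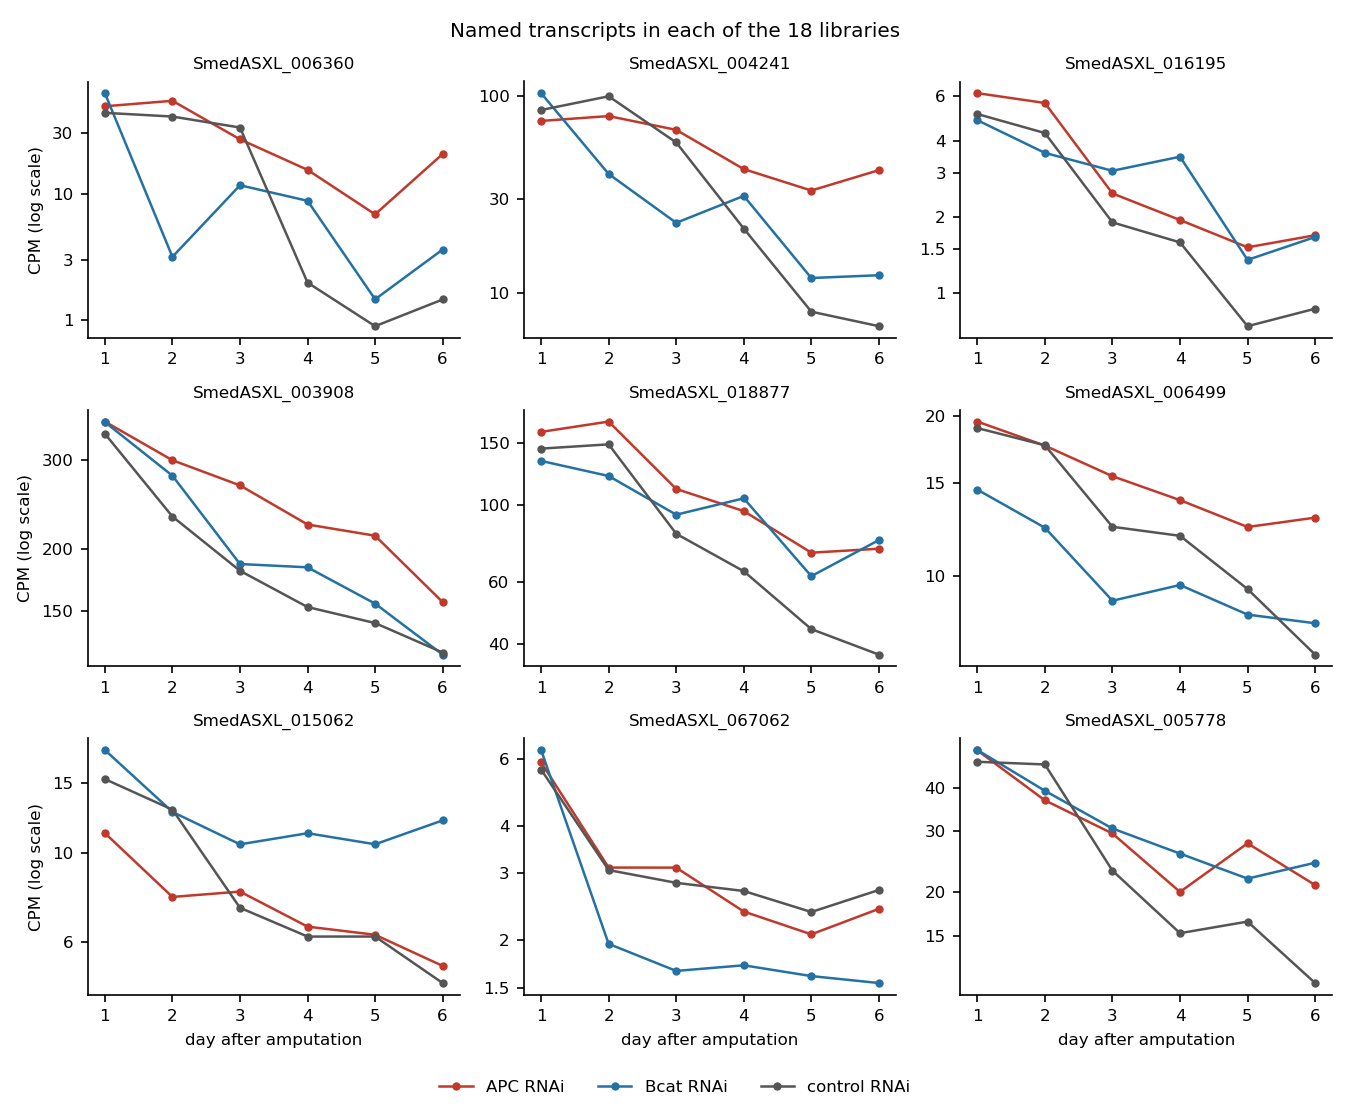
CPM (log axis, scaled separately in each panel) by day after amputation for the 9 transcripts named by fixed criteria, with 1 line per treatment and 1 point per library. SmedASXL_006360 and SmedASXL_004241 are lower in Bcat RNAi than in the other treatments at day 2, and SmedASXL_067062 has its step between days 1 and 2 in every treatment.

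From day 3 to day 4, 0 of the 23 passed the threshold in either direction (edgeR), as did 0 with DESeq2, and 0.0221% of all tested transcripts fell and 0% rose. At an unadjusted p under 0.05, 6 were lower and 0 higher at day 4, as were 2.98% and 3.13% of all tested and 3.81% and 1.4% of the 13691. The median log2 change was -0.19, against -0.00 over all tested and -0.03 over the 13691. Of the 23 changes, 22 were below 0, as were 8458 of the 13691. The lowest of the 23 was that of SmedASXL_006360, at -1.65.

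From day 5 to day 6, 1 of the 23 fell and 0 rose past the threshold, where 2.01% of all tested fell and 1.24% rose past it. By sign alone 19 were lower and 4 higher, as were 11640 and 2051 of the 13691. The one called was again SmedASXL_003908, from 169.9 CPM ± 37.3 to 134 CPM ± 19.0 (SD, n = 3), a log2 change of -0.49 (SE 0.09, adjusted p = 0.0267, edgeR), lower in 3 of 3 treatments. The call was lost under 8 of 27 other settings, with adjusted p up to 0.698. The median over the 23 was -0.21, but over the 13691 within the same limits it was already -0.14. Of the 13691, 5.16% fell past the threshold, against 4.35% of the 23. At an unadjusted p under 0.05, 8 were lower and 0 higher at day 6, as were 15.5% and 9.61% of all tested and 37.6% and 1.92% of the 13691. The last step of the 23 was thus near that of transcripts under the same limits. The count was 0 without any 1 of the APC RNAi or Bcat RNAi libraries of days 5 and 6, 4 without the Bcat RNAi library of day 1, 2 without the control library of day 1 and 6 without that of day 5. It was 7 with DESeq2, 5 with RLE scaling and 0 under loess offsets by abundance. The number of all tested transcripts that fell past the threshold moved with it. It went from 730 to 5079 with DESeq2, 3206 with RLE, 4099 without control day 5 and 2 with loess offsets.

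The middle days were set against the mean of days 1, 2, 5 and 6, which asks whether the level had already come down by days 3 and 4. On the log2 scale this contrast is orthogonal to early minus late. The choice used ratios of mean CPM, so the contrast is not wholly independent of it. With edgeR 0 of the 23 passed the threshold either way, as did 0% of all tested, and with DESeq2 2 were lower. At an unadjusted p under 0.05, 11 were lower and 0 higher, as were 5.41% and 6.38% of all tested and 11.4% and 1.73% of the 13691. The median was -0.15 log2 units, against 0.01 over all tested and -0.04 over the 13691 within the same limits. Of the 23 values, 18 were below 0, as were 10155 of the 13691, so the sign does not set the 23 apart. Expressed as a position between the late level (0) and the early level (1) on the log2 scale, days 3 and 4 had a median of 0.401 and lay below 0.5 for 17 of the 23. The position ranged from 0.17 for SmedASXL_067062 to 0.789 for SmedASXL_006170. Within treatments it lay below 0.5 for 17 in control, 19 in APC RNAi and 13 in Bcat RNAi, with medians of 0.413, 0.358 and 0.468. Averaged over treatments, the middle days thus lay nearer to the late than to the early level for most of the 23. With edgeR this was not beyond the threshold of the test for any, and in Bcat RNAi the majority was small.

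**Figure D4:**
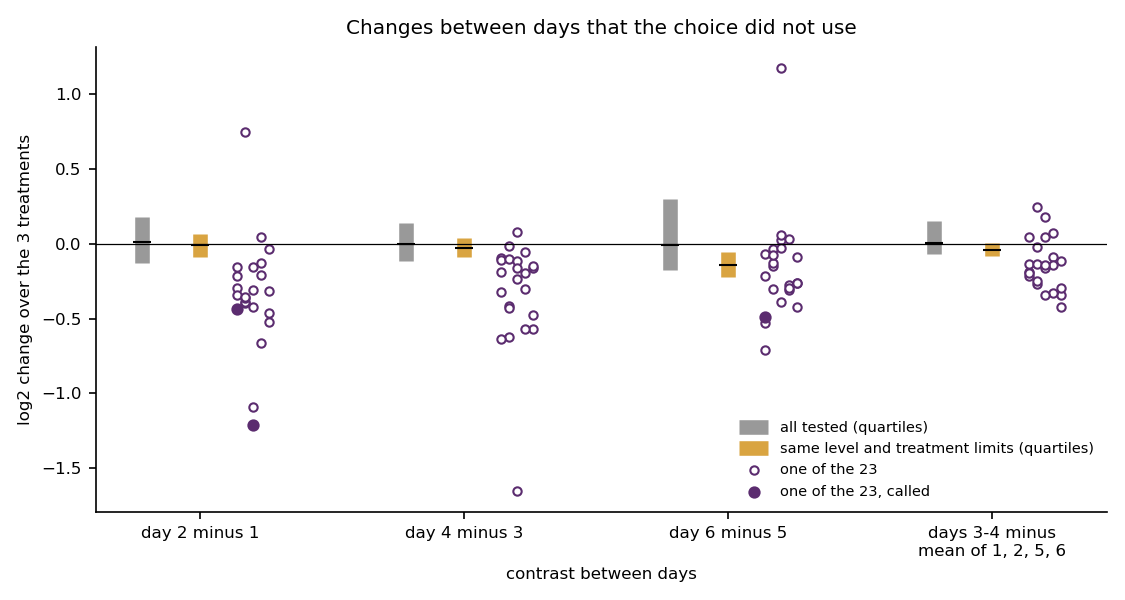
Log2 change over the 3 treatments between days for 4 contrasts. Circles are the 23 transcripts, filled where the adjusted p is under 0.05 (edgeR), and bars span the quartiles of all tested transcripts (grey) and of those within the same level and treatment limits (ochre), with a dash at the median. For the step from day 1 to day 2, 21 of the 23 circles lie below 0 and 2 are filled. Of the 13691 transcripts within those limits, 7360 are below 0 for this step.

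The median early-to-late ratio was 2.44 in control, 1.85 in APC RNAi and 2.28 in Bcat RNAi. Control had the largest ratio for 15 transcripts, Bcat RNAi for 7 and APC RNAi for 1. APC RNAi had the smallest for 13, Bcat RNAi for 6 and control for 4. In CPM, on days 1 and 2 the median level in APC RNAi was 1.05 times that of control, and on days 5 and 6 it was 1.38 times. For Bcat RNAi these medians were 1.01 and 1.23. At days 5 and 6, 20 of the 23 were above control in APC RNAi and 16 in Bcat RNAi.

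The difference in change was fitted as an interaction: the change from days 1 and 2 to days 5 and 6 in a knockdown minus that in control, over all 18 libraries with day as a factor (edgeR quasi-likelihood test). The choice asked for an early level above the late one in each treatment, not for equal changes. It did set the limit of 1.7 on the mean over treatments, so a transcript could pass largely through a single treatment, control or a knockdown. Such a transcript differs between treatments by the way it was chosen. The ratio was at least 1.7 in control for 21 of the 23, in APC RNAi for 17 and in Bcat RNAi for 16, and it was under 1.7 in both knockdowns for 4. The tests are therefore not independent of the choice: the shares over all tested are given beside the counts, and nothing is read from setting one against the other. Both comparisons use the same control libraries. A positive value means that the level came down less in the knockdown than in control.

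For APC RNAi, 6 of the 23 came down less than in control and 0 more, where 0.425% of all tested transcripts had a positive and 0.0359% a negative difference past the threshold. The median difference of the 23 was 0.45 log2 units, against 0.07 over all tested and 0.15 over the 13691 within the same limits. Of the 23, 21 were positive, as were 10350 of the 13691. Of the 6, 2 had a ratio under 1.7 in both knockdowns, SmedASXL_006499 and SmedASXL_004562. SmedASXL_004241 had the largest difference among those called, 2.73 (SE 0.43, adjusted p = 0.00314, edgeR), with a late level 5.00 times that of control and an early level 0.834 times that of control. SmedASXL_005778 followed with 1.09 (SE 0.18, adjusted p = 0.00426, edgeR). It went from 51.4 and 36.9 CPM on days 1 and 2 to 27.7 and 21.0 CPM on days 5 and 6 in APC RNAi, and from 47.6 and 46.8 CPM to 16.5 and 11.0 CPM in control. The late libraries of APC RNAi stood above those of control, and the early ones overlapped. The other 4, named after their values were seen, were SmedASXL_018877 with 0.81, SmedASXL_006499 with 0.73, SmedASXL_016192 with 0.71 and SmedASXL_004562 with 0.63. Without the control library of day 6, 0 of the 23 passed the threshold, and the median difference was then 0.61. The count was 2 without the APC RNAi library of day 1, and 3 without that of day 5 or without the control library of day 1. With day left out of the model, that is with no replicate block, 1 of the 23 passed it. At an unadjusted p under 0.05, 12 had a positive and 0 a negative difference, as had 11.2% and 2.79% of all tested and 23.7% and 1.91% of the 13691.

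SmedASXL_006360 had the largest difference for APC RNAi, 3.23, but with a standard error of 1.14 it did not pass the threshold (adjusted p = 0.201, edgeR). SmedASXL_016647, with 1.71 (SE 0.42, adjusted p = 0.0784, edgeR), did not either. In the latter, between days 2 and 6, control dropped from 169 to 25.9 CPM and APC RNAi from 176 to 100.2 CPM.

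For Bcat RNAi, 5 of the 23 came down less than in control and 0 more, where 0.237% of all tested had a positive and 0.0193% a negative difference past the threshold. The median difference was 0.52 log2 units, against 0.01 over all tested and 0.11 over the 13691. Of the 23, 17 were positive, as were 10750 of the 13691, so the sign does not set the 23 apart. Of the 5, 2 had a ratio under 1.7 in both knockdowns, SmedASXL_015062 and SmedASXL_004562. SmedASXL_016195 had a difference of 1.22 (SE 0.24, adjusted p = 0.0336, edgeR). It went from 4.83 and 3.59 CPM on days 1 and 2 to 1.36 and 1.67 CPM on days 5 and 6 in Bcat RNAi, and from 5.11 and 4.30 CPM to 0.742 and 0.87 CPM in control. This call was lost under 10 of 25 other settings, with adjusted p up to 0.801.

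SmedASXL_018877 had a difference of 1.15 (SE 0.15, adjusted p = 0.0014, edgeR). It stood at 133 and 121 CPM early and 62.5 and 79.2 CPM late in Bcat RNAi, and at 145 and 149 CPM early and 44.1 and 37.3 CPM late in control. Early levels in Bcat RNAi were thus below control and late levels above it. Its value for APC RNAi was 0.81 (SE 0.15, adjusted p = 0.0125, edgeR). The other 3 called for Bcat RNAi, named after their values were seen, were SmedASXL_015062 with 1.10, SmedASXL_005778 with 1.00 and SmedASXL_004562 with 0.59. Without the control library of day 6, 0 of the 23 passed the threshold, with a median of 0.56, and with no replicate block 1 did. Without the Bcat RNAi library of day 6 1 passed, and without the control library of day 1 or of day 5 3 did. At an unadjusted p under 0.05, 12 of the 23 had a positive and 4 a negative difference, as had 5.04% and 4.17% of all tested and 9.67% and 0.803% of the 13691. With DESeq2 0 had a negative one past the threshold. Without the day 2 library of Bcat RNAi or of control, 1 did.

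SmedASXL_015062, just inside the limit of the choice, levelled off in Bcat RNAi and not in the other treatments. It held 18.2, 12.7, 10.5, 11.2, 10.5 and 12.1 CPM on days 1 to 6 in Bcat RNAi and 15.4, 12.9, 7.30, 6.18, 6.18 and 4.72 CPM in control. In APC RNAi it held 11.2, 7.77, 8.02, 6.55, 6.24 and 5.22 CPM. Its difference from control was 1.10 in Bcat RNAi (SE 0.17, adjusted p = 0.0101, edgeR) and 0.80 in APC RNAi (SE 0.18, adjusted p = 0.0516, edgeR). Late Bcat RNAi levels were 2.06 times those of control.

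The fitted difference, on the TMM scale, was negative for Bcat RNAi in 6 of the 23, with 0 past the threshold, while in CPM the ratio was larger in Bcat RNAi than in control for 7. SmedASXL_013874, among both, had ratios of 5.49 in Bcat RNAi, 2.77 in APC RNAi and 2.67 in control, a difference of -0.80 from control (SE 0.26, adjusted p = 0.365, edgeR). Its late levels lay between 7.09 and 10.1 CPM in all treatments, and the treatments were farthest apart at day 1, with 54.3 CPM in Bcat RNAi.

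**Figure D5:**
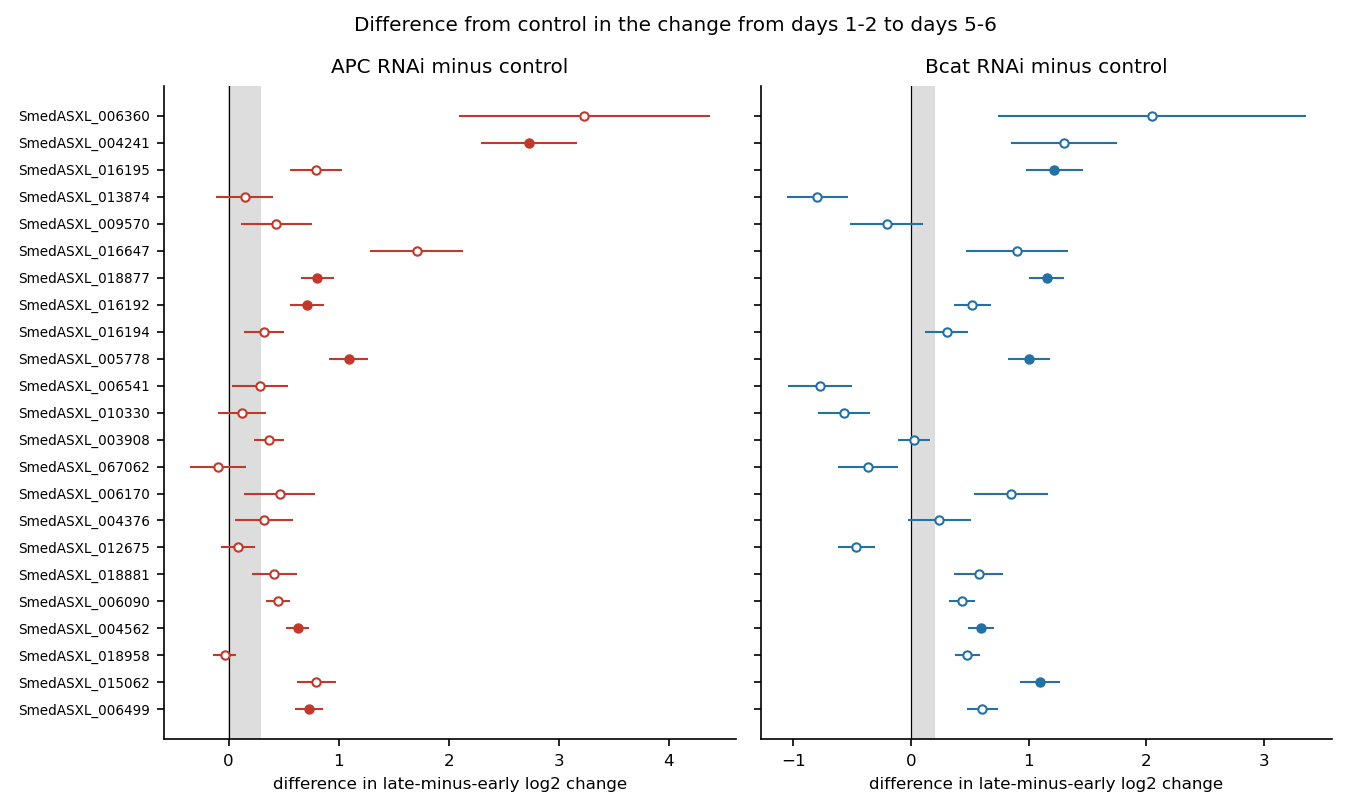
Difference from control in the log2 change from days 1 and 2 to days 5 and 6 for each of the 23 transcripts, with APC RNAi left and Bcat RNAi right. Bars are standard errors, filled points have an adjusted p under 0.05 (edgeR), and the grey band spans the quartiles of the 13691 transcripts within the same level and treatment limits. Filled points number 6 on the left and 5 on the right, and all lie right of 0.

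The 64 transcripts with the opposite time course gave other values under the same tests. Their median step from day 1 to day 2 was 0.23 log2 units, with 0 called. They were chosen for low levels on days 1 and 2, so the sign of this step is not free of their choice. Their median difference from control in the early-to-late change was 0.11 for APC RNAi and 0.11 for Bcat RNAi. Over the 13691 these medians were 0.15 and 0.11. Of the 64, 5 (7.81%) had a positive difference past the threshold for APC RNAi and 0 for Bcat RNAi. Of all tested, 0.425% and 0.237% did. For a transcript that rises, a positive value means a larger rise in the knockdown than in control. The choice of the 64 bears on these tests too. The difference between the 2 sets was not tested.

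Of the 23, 3 are in the authors' deposited table of APC RNAi against Bcat RNAi, which is 13% of them, while 54% of the 15154 transcripts of at least 2 CPM are listed there. The choice limited both treatment ratios, which bears on this share. In the authors' deposited table SmedASXL_016647 has a log2 fold change of 0.77 and SmedASXL_006499 one of 0.73, both higher in APC RNAi, and SmedASXL_015062 has -0.44, higher in Bcat RNAi.

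A run of neighbouring identifiers stood out after the values were seen. SmedASXL_016192, SmedASXL_016194 and SmedASXL_016195 are among the 23, with ratios of 2.34, 2.25 and 3.58. The 4 others numbered from SmedASXL_016190 to SmedASXL_016196 were also higher early, with ratios between 1.42 and 1.68. The ends of the run were set by these ratios. SmedASXL_016197 had a ratio of 0.725 and SmedASXL_016198 one of 0.832. Whether consecutive identifiers are isoforms or copies of 1 gene is not known here, and reads of near-identical transcripts may be shared, so the 3 may not be separate cases.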

How the data were processed

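The authors deposited raw read counts per SmedASXL transcript for 18 libraries, with no normalization, per the file headers. The submitters' processing notes name bcl2fastq 1.8.3, Bowtie2 2.2.4 and DESeq2, with no settings; strand use and the placing of reads that fit several transcripts are not given in the sources used here. Total and unaligned reads, 2 rows that name no transcript (5.22% of reads unaligned), stayed out of library sizes and tests. The authors' deposited table of log2 fold changes and adjusted p-values (DESeq2, APC against Bcat RNAi) was used only where named.

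CPM is per aligned read, as the rule for the 23 requires. Tests used edgeR 4.0.16 under R 4.3.3 (TMM scaling, glmQLFit, glmQLFTest) on the 36235 transcripts that passed filterByExpr, grouped by treatment, with 10 residual degrees of freedom for the contrasts between days and 6 for the interactions. In the interactions, treatment varied by phase (days 1-2, 3-4 and 5-6). Standard errors are the log2 change over the root of the F value. Medians of log2 changes are on the TMM scale.

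Groups are the treatments in the titles. The replicate number used here is the day in the titles. Libraries are thus matched across treatments by day only, and the replicate block is the day term. Same-day deviations from the treatment means correlated between -0.0302 and 0.337. No 2 libraries agreed within sampling noise (lowest chi-square per degree of freedom 6.6).

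Members, contrasts and settings were chosen with earlier results of these data known. Named transcripts are the 2 with the largest ratio, the 2 with the largest smallest ratio, the 2 with most reads, 2 on each side of the limit of 1.7, and at most 2 each way per contrast; others are marked as named after their values were seen. Gene lists and cell type markers were not read, since identifiers carry no names. The edgeR steps were tested on simulated data. Alternatives were RLE factors, no filter, DESeq2 1.42.0, other model terms, each library or treatment left out, other limits of the rule and, chosen after seeing the data, loess offsets by abundance and both day 1 libraries of control and Bcat RNAi left out.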

Additional observations from a re-analysis of the deposited data

Results flagged for a closer look

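Among the 27 sets of 6 daily values of the 9 transcripts named by fixed criteria, 6 had a day far from the other 5, each time a high day 1. The rule that chose the transcripts favours a high day 1, SmedASXL_067062 was named for its step from day 1 to day 2, and the days are a time course. The usual rate of about 1 in 20 sets therefore does not apply, and nothing is read from the number. SmedASXL_067062 stood apart at day 1 in each treatment, with 5.87 CPM in APC RNAi, 6.33 CPM in Bcat RNAi and 5.63 CPM in control. In Bcat RNAi, day 1 also stood apart for SmedASXL_006360 at 62.5 CPM, SmedASXL_004241 at 103 CPM and SmedASXL_015062 at 18.2 CPM.

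The change from early to late days differed between treatments by the interaction test for 6 of the 23 transcripts in APC RNAi against control and for 5 in Bcat RNAi against control, beside 0.425% and 0.237% of all tested transcripts. Both counts fell to 0 without the control library of day 6 and to 1 with no replicate block. A transcript could be chosen largely through a single treatment, so these tests are not independent of the choice. Named among them are SmedASXL_004241 with a difference of 2.73 log2 units and SmedASXL_005778 with 1.09 in APC RNAi. In Bcat RNAi they are SmedASXL_016195 with 1.22 and SmedASXL_018877 with 1.15.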

How the results depend on the processing

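The 23 transcripts became 56 with an early-to-late ratio of at least 1.5, 13 with at least 2 and 49 with no treatment limits, and between 11 and 34 with 1 library left out. Other level limits and TMM scaling gave between 18 and 25. Transcripts that fell past the threshold from day 1 to day 2 numbered 1 to 3 with 1 library left out. They were 4 with no filter on low counts and 0 with no treatment term. The number was 1 without all Bcat RNAi libraries, without all control libraries or without both day 1 libraries of control and Bcat RNAi. With no filter 1 rose past it. From day 5 to day 6 those that fell past it numbered 0 to 6 with 1 library left out. They were 5 with RLE factors, 6 with no filter, 7 with DESeq2, 3 without both day 1 libraries, 2 without all control libraries, and 0 with no treatment term, with loess offsets or without all APC RNAi or all Bcat RNAi libraries. For days 3 and 4 against the other days, 2 were lower with no filter and 2 with DESeq2.

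The replicate block is the day. For APC RNAi against control, the 6 positive differences became 1 with no replicate block, 5 with a linear slope over days and the block, 11 with no filter, 3 with loess offsets, 3 without both day 1 libraries, and 0 to 9 with 1 library left out. For Bcat RNAi the 5 became 1 with no replicate block, 4 with the slope and the block, 12 with no filter, 3 with loess offsets, and 0 to 6 with 1 library left out. Negative differences there were 1 with no filter and 0 to 1 with 1 library left out. The 7 tested values of named transcripts kept their direction in all 25 to 27 settings run for each. The cause of these changes was not tested. Each treatment and day has 1 pooled library, so none of these tests carries animal-to-animal error.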
